A study of Homo sapiens with 6 samples.

Results

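The genes of de novo fatty acid synthesis were followed on 6 Affymetrix HG-U133 Plus 2.0 arrays of human breast cancer cells, the bone-seeking subline 1833 derived from MDA-MB-231. The 10 listed genes are ACLY, ACACA, ACACB, FASN, ACSS2, ME1, ACSL1, ACSL3, SLC25A1 and MID1IP1, taken by name with every probe set annotated to them. This gave 22 of the 54613 probe sets tested, for 9 genes. ACSL3 had no probe set annotated to it in the table used here and was not analysed. On 3 arrays the cells were labelled as expressing S153E-RKIP, a mutant of the Raf-1 inhibitor RKIP that the series calls the more potent one, from a lentiviral vector with selection in 0.5 µg/ml puromycin. The other 3 arrays were labelled control, which the series describes as a vector control, and all cells grew in medium with 10% serum. No puromycin is given for the control arrays, so an effect of puromycin cannot be told apart from one of S153E-RKIP. The labels call the arrays of a group biological replicates without saying whether separate cultures or clones were used, so every p reflects spread among these arrays, part of which may be technical.

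All levels are log2 RMA signals as deposited, and a difference is always the S153E-RKIP mean less the control mean on the log2 scale. A gene was read by its brightest probe set and called at an adjusted p under 0.05 (limma, Benjamini-Hochberg over 19775 genes). Precision is limited by having 3 arrays a group, and a difference had a median SE of 0.072 over all genes. The source name of the S153E-RKIP arrays speaks of an HMGA2 shRNA, and neither PEBP1, which encodes RKIP, nor HMGA2 was called (differences of -0.093 and -0.023, adjusted p = 0.473 and 0.882). Every direction below therefore rests on the label S153E-RKIP. All 8 transcripts typical of MDA-MB-231 cells lay above the median of all genes (6.64) on every array, VIM and CD44 among them. Of 7 luminal and epithelial genes that these cells are known to lack, CDH1, ERBB3, FOXA1 and PGR lay below it on every array and ESR1 on 4 of 6, while EPCAM and GATA3 lay above it on all 6. None of these 15 genes was called, nor any of 8 adipocyte markers or 5 measured blood cell markers (limma, with 4, 1 and 1 of them at an unadjusted p under 0.05). S153E-RKIP replicate 1 stood apart from its group on the second principal component (its score was positive, while replicates 2 and 3 lay at -8.33 and -7.66), which held 21.6% of the variance. Results for the fatty acid synthesis genes are therefore also given without it. In bulk RNA, fewer cells that express a gene and less RNA per cell cannot be told apart.

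Cells build fatty acids in the cytosol from acetyl-CoA. Citrate leaves the mitochondrion through the carrier SLC25A1 and is split to acetyl-CoA by ATP citrate lyase (ACLY), while ACSS2 makes acetyl-CoA from acetate. Acetyl-CoA carboxylase turns it into malonyl-CoA, fatty acid synthase (FASN) joins these units into palmitate with NADPH, part of which comes from malic enzyme (ME1), and acyl-CoA synthetases such as ACSL1 activate the product. Many of these genes are known targets of the SREBP transcription factors, which act together with NF-Y and Sp1, and lipogenesis is often raised in breast cancers.

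The DNA around the starts of the listed genes is shown first, from 250 bases before to 50 after an annotated transcript start. RefSeq windows (GRCh38.p14) were matched for 9 of the 10 genes, 18 windows in all, and FASN was not among them. The lines below give windows of 3 genes called lower (for ACLY and ACACA, which have 2 and 3 windows, one that holds both a CCAAT box and GC boxes) and of MID1IP1, which holds a sterol element match. Capitals mark CCAAT (the NF-Y box), GGGCGG (the GC box bound by Sp1 proteins) and TCACNCCAC (a sterol regulatory element consensus), on either strand and with overlapping matches counted.
SLC25A1, chr22:19178687-19178986, minus strand: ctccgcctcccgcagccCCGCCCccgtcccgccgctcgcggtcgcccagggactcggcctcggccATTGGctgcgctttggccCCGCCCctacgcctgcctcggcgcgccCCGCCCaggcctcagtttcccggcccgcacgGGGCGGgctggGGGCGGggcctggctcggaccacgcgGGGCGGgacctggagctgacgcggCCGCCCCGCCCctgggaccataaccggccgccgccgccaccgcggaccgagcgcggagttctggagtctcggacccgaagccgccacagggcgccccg
ACLY, chr17:41918973-41919272, minus strand: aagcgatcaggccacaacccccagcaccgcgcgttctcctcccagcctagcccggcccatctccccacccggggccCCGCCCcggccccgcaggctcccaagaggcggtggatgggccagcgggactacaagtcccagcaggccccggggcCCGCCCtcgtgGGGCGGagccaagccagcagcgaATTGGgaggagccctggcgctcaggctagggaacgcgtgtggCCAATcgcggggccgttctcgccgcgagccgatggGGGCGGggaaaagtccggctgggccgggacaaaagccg
ACACA, chr17:37359047-37359346, minus strand: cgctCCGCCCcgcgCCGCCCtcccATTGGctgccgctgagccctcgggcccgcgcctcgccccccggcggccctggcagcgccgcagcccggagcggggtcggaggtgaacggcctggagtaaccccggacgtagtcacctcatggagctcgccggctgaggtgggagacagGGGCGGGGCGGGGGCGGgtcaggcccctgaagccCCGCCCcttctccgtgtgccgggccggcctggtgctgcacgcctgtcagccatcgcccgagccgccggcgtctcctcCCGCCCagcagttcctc
MID1IP1, chrX:38801209-38801508, plus strand: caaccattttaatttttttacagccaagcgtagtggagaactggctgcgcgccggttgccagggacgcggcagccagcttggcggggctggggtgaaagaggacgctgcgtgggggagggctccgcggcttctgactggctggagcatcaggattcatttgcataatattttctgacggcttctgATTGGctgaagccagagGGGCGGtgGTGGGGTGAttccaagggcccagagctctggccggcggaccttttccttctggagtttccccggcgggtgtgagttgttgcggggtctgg

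The SLC25A1 window held 1 CCAAT box and 8 GC boxes, the ACLY window 2 and 4, the ACACA window 1 and 7, and the MID1IP1 window 1 and 1. The letters TCACNCCAC occurred in 2 of the 18 windows, once in that of MID1IP1, with the first of its bases 40 before the start, and once in 1 of the 5 windows of ACSL1. They were in 1.13% of all 35116 windows, and neither MID1IP1 nor ACSL1 was called. CCAAT was in 10 of the 18 windows and GGGCGG in 13, while 34.6% and 45.0% of all windows held them. Both were in 9 of the 18, against 14.4% of all windows. Besides the windows shown and the second of ACLY, these belonged to ACACB, ACSS2 and ACSL1, which were not called, and to ACSL3, which was not measured. Neither of the ACACA windows left out above held both boxes. Whether the matches differ between called and uncalled genes was not tested. The 2 ACLY windows overlap and share their matches. CACGTG, the E-box, was in none of the 18 and in 7.26% of all windows. These matches describe the letters in the windows only, and binding was not measured.

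The series set out to find RKIP-regulated genes. Of the 9 genes measured, 4 fell on the S153E-RKIP arrays, namely FASN, SLC25A1, ACACA and ACLY, 0 rose, and the other 5 were not called. Of all 19775 genes 1.21% were called lower and 0.688% higher. The listed genes were chosen with earlier results of these data known, so their count is not independent of these data. At an unadjusted p under 0.05 there were 7 of the 9 genes, ACSS2, ME1 and MID1IP1 besides, and all 7 had a difference below 0. Of all genes 15.7% were at that unadjusted p, in either direction. The 4 that fell include the citrate carrier, the lyase, the main cytosolic carboxylase and the synthase, which act one after another. Their fall was of 0.95 on the log2 scale for FASN (SE 0.095), of 0.53 for SLC25A1 (SE 0.059), of 0.44 for ACACA (SE 0.059) and of 0.31 for ACLY (SE 0.054). In 6 of the 9 genes all 3 S153E-RKIP arrays lay below all 3 control arrays, as they did in 10.8% of all genes. The median difference was -0.24 over the 9 genes and 0.010 over all genes.

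**Figure D1:**
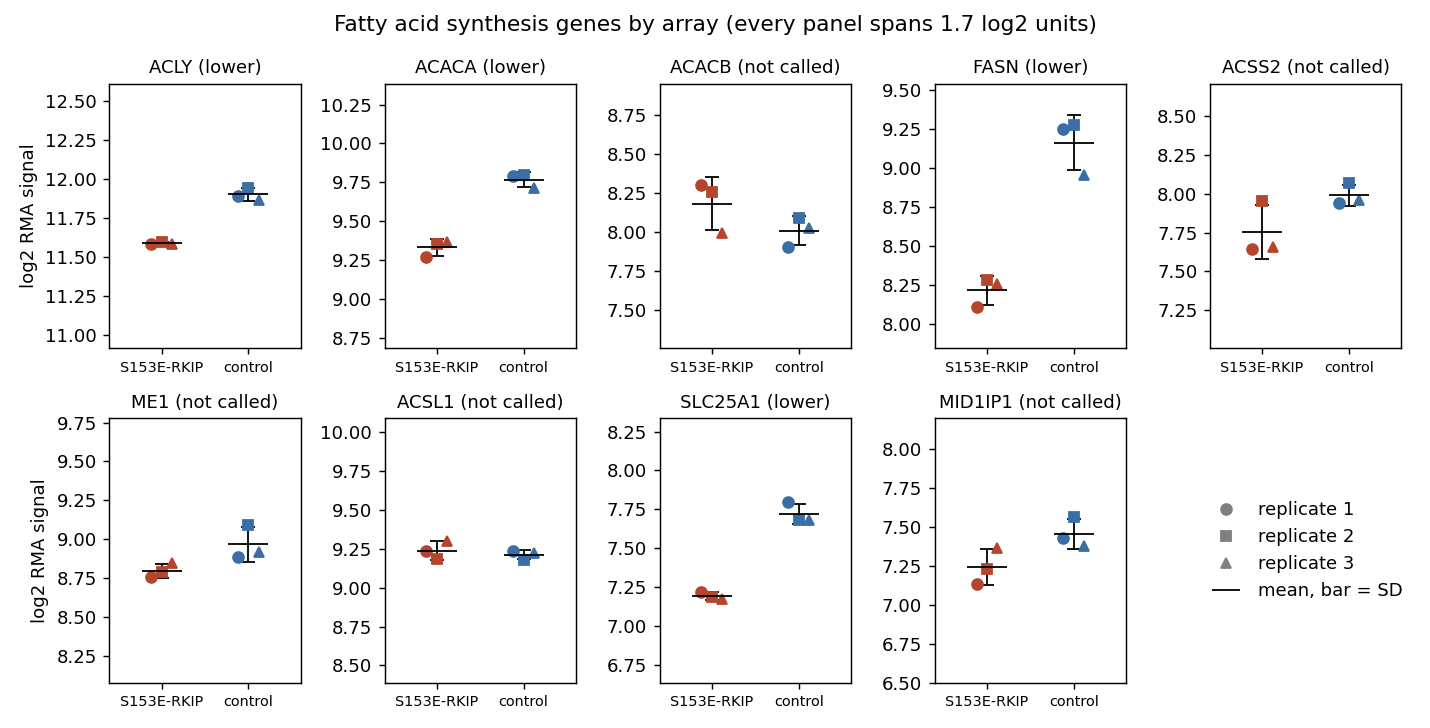
Log2 RMA signal (vertical axis) of the brightest probe set of each gene on the 3 S153E-RKIP arrays and the 3 control arrays (horizontal axis). Symbols are replicates, horizontal lines means and bars the SD, and the axes of all panels span the same number of log2 units. The groups are furthest apart in FASN (means of 8.21 and 9.16) and lie on each other in ACSL1 (9.24 and 9.21).

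The citrate carrier and the citrate-cleaving enzyme both fell. SLC25A1, the mitochondrial citrate carrier, had levels of 7.22, 7.18 and 7.17 on S153E-RKIP arrays 1, 2 and 3, against 7.80, 7.68 and 7.68 on control arrays 1, 2 and 3. The groups lay far apart relative to their spread, with SDs of 0.026 and 0.067. The fall was 1.44-fold (difference -0.53, 95% confidence interval -0.66 to -0.39, adjusted p = 0.00360). Its single probe set, 210010_s_at, was called whichever array was left out. The largest adjusted p was 0.0298 in the test over genes and 0.0451 among all probe sets. Without S153E-RKIP replicate 1 the difference was -0.54.

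ACLY, which cleaves the exported citrate, has 3 probe sets on the array. The brightest, 201128_s_at, had levels of 11.58, 11.60 and 11.58 on the S153E-RKIP arrays, against 11.89, 11.94 and 11.86 on the control arrays. The S153E-RKIP values were nearly identical (SD 0.0079) and all lay below the controls (SD 0.041). The difference was -0.31 (95% confidence interval -0.44 to -0.19, adjusted p = 0.0265), a fall of 1.24-fold. Both dimmer probe sets also had every S153E-RKIP array below every control array, with differences of -0.35 and -0.41. Tested among all probe sets, of which 0.685% were called lower, the brightest and the dimmest ACLY probe sets were called (adjusted p = 0.0481 and 0.0227) and the middle one was not (adjusted p = 0.0631). In the test over genes, which reads the brightest probe set, ACLY was not called whichever array was left out (adjusted p between 0.0578 without S153E-RKIP replicate 1 and 0.139 without control replicate 2), although its difference stayed between -0.33 and -0.29. Among all probe sets its dimmest one was still called without S153E-RKIP replicate 1 (-0.44, adjusted p = 0.0408) and in none of the other 5 cases.

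ACSS2, the cytosolic acetyl-CoA synthetase that uses acetate, did not pass the test. Its levels were 7.65, 7.95 and 7.66 on the S153E-RKIP arrays, against 7.94, 8.07 and 7.96 on the control arrays. S153E-RKIP replicate 2 lay among the controls while the other two lay below them. The difference was -0.24 (95% confidence interval -0.44 to -0.032, adjusted p = 0.260), and it was -0.19 without S153E-RKIP replicate 1 and -0.34 without replicate 2.

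ME1, which makes cytosolic NADPH from malate, had levels of 8.76, 8.79 and 8.85 on the S153E-RKIP arrays, against 8.89, 9.09 and 8.92 on the control arrays. The groups did not overlap but lay close, and the difference of -0.17 was not called (95% confidence interval -0.33 to -0.0092, adjusted p = 0.297). It was -0.15 without S153E-RKIP replicate 1 and -0.11 without control replicate 2. Its second probe set, 204058_at, had a difference of -0.25 (SE 0.060, adjusted p = 0.134 among all probe sets). The dimmest, 211204_at, with a mean of 4.62, was higher on every S153E-RKIP array, by 0.17 (adjusted p = 0.359).

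The carboxylase step is carried out by 2 paralogs. ACACA, the cytosolic acetyl-CoA carboxylase that makes malonyl-CoA for synthesis, had levels of 9.27, 9.36 and 9.37 on the S153E-RKIP arrays, against 9.79, 9.80 and 9.71 on the control arrays. All 3 S153E-RKIP values lay below the controls, and the fall was 1.35-fold (difference -0.44, 95% confidence interval -0.57 to -0.30, adjusted p = 0.00885). The call was lost without control replicate 1 or 2 (adjusted p = 0.0690 and 0.0592) and kept without S153E-RKIP replicate 1 (-0.40, adjusted p = 0.0274). The other ACACA probe set, 214358_at, with a mean of 6.29, had a difference of -0.0014 (95% confidence interval -0.18 to 0.18). With the mean of both, the difference was -0.22 and was not called (adjusted p = 0.0994).

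ACACB, the carboxylase at the mitochondrial surface whose malonyl-CoA restrains fatty acid import, was not called. Its brightest probe set had levels of 8.30, 8.26 and 7.99 on the S153E-RKIP arrays, against 7.91, 8.09 and 8.02 on the control arrays. The groups overlapped, since S153E-RKIP replicate 3 lay within the controls. The difference was 0.18 (95% confidence interval -0.035 to 0.39, adjusted p = 0.397). It was 0.12 without S153E-RKIP replicate 1 and 0.27 without S153E-RKIP replicate 3, and was called in neither case. The other 6 ACACB probe sets had means between 3.78 and 6.06 and differences between -0.098 and 0.19, and none was called. Whether the 2 paralogs differ from each other in their change was not tested.

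MID1IP1 encodes a protein that promotes polymerisation and activity of acetyl-CoA carboxylase. Its levels were 7.14, 7.23 and 7.36 on the S153E-RKIP arrays, against 7.43, 7.56 and 7.38 on the control arrays. The groups did not overlap, but S153E-RKIP replicate 3 and control replicate 3 nearly met. The difference of -0.21 was not called (95% confidence interval -0.39 to -0.034, adjusted p = 0.247), and was -0.16 without S153E-RKIP replicate 1.

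FASN, the multienzyme that assembles palmitate, had the largest difference of the 9 genes. Its brightest probe set, 212218_s_at, had levels of 8.11, 8.28 and 8.25 on the S153E-RKIP arrays, against 9.25, 9.28 and 8.96 on the control arrays. Even the lowest control array lay well above the highest S153E-RKIP array. The fall was 1.93-fold (difference -0.95, 95% confidence interval -1.17 to -0.73, adjusted p = 0.00202). It was called whichever array was left out, with differences between -1.05 and -0.89 and a largest adjusted p of 0.0278, and was -0.89 without S153E-RKIP replicate 1.

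The brightest FASN probe set ends in _s_at, a type whose probes can be shared by several transcripts. So do the called probe sets of SLC25A1 and ACLY. The other FASN probe set, 217006_x_at, is also of a type whose probes can pair with several transcripts. Its levels were 6.29, 6.51 and 6.08 on the S153E-RKIP arrays, against 6.21, 5.96 and 6.13 on the control arrays. These groups overlapped and the difference was 0.19 (95% confidence interval -0.061 to 0.45, adjusted p = 0.490 among all probe sets). The mean of both probe sets gave a difference of -0.38 for FASN, still called (adjusted p = 0.0454).

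ACSL1, which joins long-chain fatty acids to coenzyme A, showed no detectable difference. Its levels were 9.23, 9.18 and 9.30 on the S153E-RKIP arrays, against 9.24, 9.18 and 9.22 on the control arrays. The values were interleaved, and the difference was 0.026 (95% confidence interval -0.11 to 0.16, adjusted p = 0.858). It was 0.028 without S153E-RKIP replicate 1. Its second probe set had a difference of -0.047 (95% confidence interval -0.18 to 0.089).

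Over all 22 probe sets 5 were called lower and none higher, against 0.685% and 0.366% of all probe sets. A difference below 0 was found in 13 of the 22 and in 46.4% of all probe sets. The 5 were read for FASN, SLC25A1, ACACA and, with 2, ACLY. The 9 probe sets with all S153E-RKIP arrays below all control arrays had means of 7.35 or above, whereas the 2 with all S153E-RKIP arrays above, 1 of ACACB and 1 of ME1, had means of 5.86 and 4.62. Of all probe sets 9.06% lay all below and 8.09% all above, so the 2 above are near the general share. Signal over background was not measured for the dim probe sets, and the part of dim signal in their smaller differences was not tested.

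**Figure D2:**
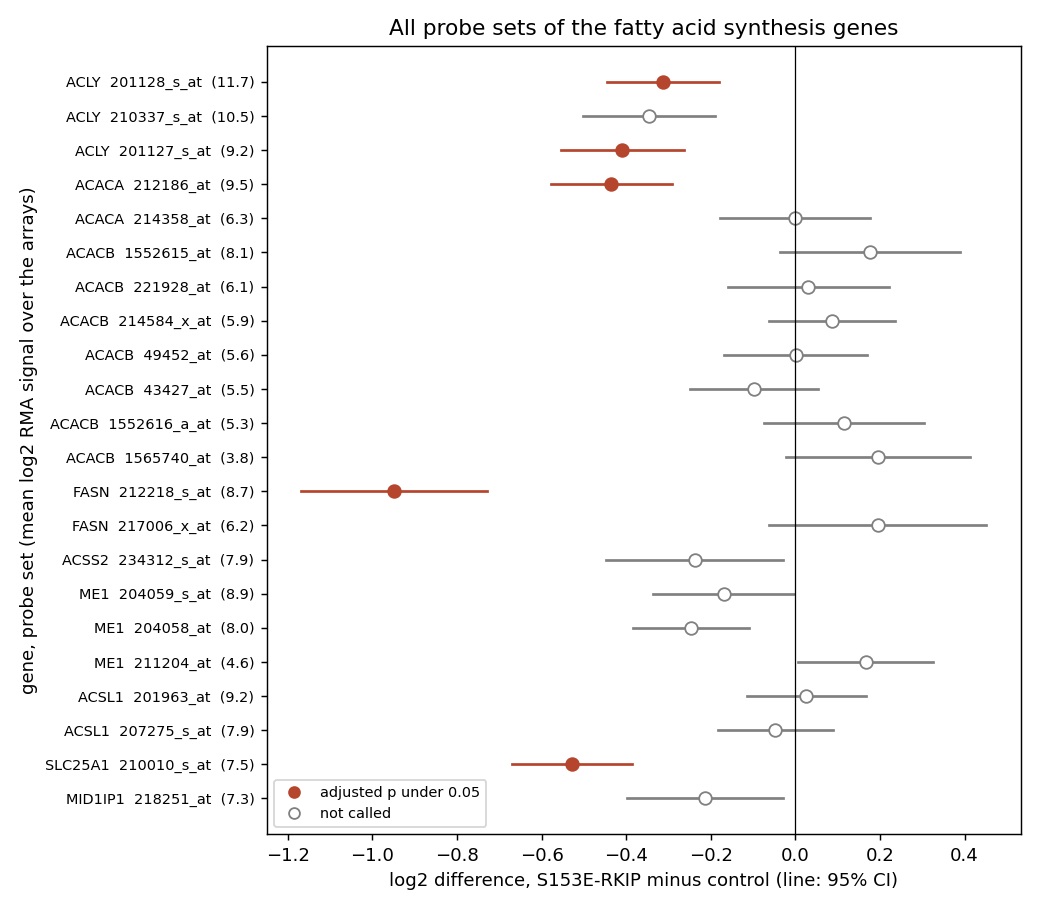
Log2 difference, S153E-RKIP minus control, with its 95% confidence interval (horizontal axis) for each of the 22 probe sets, grouped by gene with the mean log2 signal in brackets (vertical axis). Filled points were called among all probe sets. The 3 ACLY probe sets lie together between -0.41 and -0.31, while the brighter and dimmer probe sets of FASN and ACACA lie apart.

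Each of the 4 called genes was set beside the 3 genes outside the list whose profile was nearest. Likeness was the root mean square difference over the 6 arrays after each gene was centred on its own mean, among genes above the median level. For FASN the nearest were IDH1 (0.0996), TMEM135 (0.103) and MYLK (0.122), and their log2 differences were -0.89, -1.03 and -0.73. For SLC25A1 they were NUAK1 (0.036), CHML (0.046) and NEGR1 (0.047). For ACACA they were CUL4B (0.027), CLCN6 (0.028) and JUND (0.031), and for ACLY they were SCD5 (0.026), ALDH6A1 (0.026) and CCNG1 (0.026). These distances describe the 6 arrays, and each profile includes the difference between the groups.

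Among the transcription factors and sensors that set lipogenic gene expression, 4 of 13 measured fell and none rose, and the median difference was -0.067. Over all genes 1.21% were called lower, 0.688% were called higher and 15.7% had an unadjusted p under 0.05 (limma). These shares also apply to the lists below. The lists were chosen with earlier results of these data known, so their counts are not independent of these data. SREBF1, which encodes the SREBP-1 factors known for switching on FASN and ACACA, had levels of 7.01, 7.36 and 7.40 on the S153E-RKIP arrays, against 7.96, 7.84 and 7.78 on the control arrays. S153E-RKIP replicate 1 was the lowest, and the groups did not overlap. The difference was -0.60 (SE 0.11, adjusted p = 0.0286), and it was -0.48 without S153E-RKIP replicate 1 (adjusted p = 0.0287). Leaving out any of the other 5 arrays ended the call (adjusted p of up to 0.159, without control replicate 1). Its second probe set had a mean near 6.29 in both groups and a difference of 0.0074.

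SREBF2, the SREBP factor known for sterol genes, fell by 0.66 (SE 0.080). Its second probe set also fell, by 0.64, while the remaining one, with a mean of 7.37 on the S153E-RKIP arrays and 7.31 on the control arrays, had a difference of 0.059 (adjusted p = 0.752 among all probe sets). INSIG1, which retains the SREBP escort in the endoplasmic reticulum, had levels of 8.36, 8.18 and 8.30 on the S153E-RKIP arrays, against 10.82, 11.12 and 10.92 on the control arrays. PPARG, a nuclear receptor of adipogenic genes, fell by 0.53 (SE 0.073, adjusted p = 0.00943), a call lost without any 1 control array (adjusted p of up to 0.0729). The factors MLX, MLXIPL and NR1H3, the escort SCAP and the proteases MBTPS1 and MBTPS2 were not called, with differences between -0.21 and 0.099. MLXIPL lay below the median of all genes on every array, and NR1H3 lay above it on only 2 of 6. THRSP, a paralog of MID1IP1, had means of 5.62 on the S153E-RKIP arrays and 5.53 on the control arrays, both below the median of all genes.

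Of the 13 measured genes for cofactor attachment and kinase control of these enzymes, none was called by limma and none had an unadjusted p under 0.05. They include the subunits of AMP-activated protein kinase, which phosphorylates acetyl-CoA carboxylase, and their differences lay between -0.14 and 0.098. At that unadjusted p (limma) were 4 of 13 regulators, 3 of 12 pyruvate and citrate genes and 4 of 8 NADPH genes. So were 6 of 15 desaturases and elongases and 5 of 18 other acyl-CoA synthetases. Among oxidation genes it was 4 of 22, and among uptake and binding genes 2 of 9.

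In the supply of pyruvate and citrate, 1 of 12 measured genes fell and none rose. That gene was IDH1, the cytosolic isocitrate dehydrogenase that yields NADPH, with levels of 9.66, 9.82 and 9.93 on the S153E-RKIP arrays, against 10.65, 10.79 and 10.65 on the control arrays. The groups lay far apart, with a difference of -0.89 (SE 0.083, adjusted p = 0.00154), and the call held whichever array was left out. A second IDH1 probe set fell by 0.91 (adjusted p = 0.000632 among all probe sets). The dimmest, with means of 4.37 on the S153E-RKIP arrays and 4.53 on the control arrays, was not called. Its difference was -0.16 (adjusted p = 0.454 among all probe sets). CS, encoding the citrate synthase that makes the exported citrate, had a difference of 0.0092 (adjusted p = 0.960). In the NADPH list, which also holds IDH1, 1 of 8 fell and none rose, with a median of -0.11. The pentose phosphate genes PGD and TKT and the mitochondrial malic enzyme gene ME3 had all 3 S153E-RKIP arrays below all control arrays, with differences of -0.19, -0.22 and -0.24 that were not called (adjusted p between 0.165 and 0.191). These 3 were named after their values were seen.

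Downstream of palmitate, 3 of 15 measured desaturase and elongase genes fell and none rose. SCD, the stearoyl-CoA desaturase, had levels of 7.99, 8.76 and 8.60 on the S153E-RKIP arrays, against 11.32, 11.56 and 11.23 on the control arrays. FADS2, a desaturase of polyunsaturated fatty acids, fell by 0.72 (SE 0.082) and SCD5, a second stearoyl-CoA desaturase, fell by 0.33 (SE 0.056). The dimmer FADS2 probe set had a difference of -0.090 and was not called (adjusted p = 0.679 among all probe sets). SCD5 was no longer called once any single array was left out (adjusted p of up to 0.124), and its 3 other probe sets were not called (-0.17 to 0.038). ELOVL6, which elongates palmitate, had a difference of -0.0094 (adjusted p = 0.957). The uncalled ELOVL5, TECR and HSD17B12 had differences of -0.19, -0.16 and -0.13. These 3 and ELOVL6 were named after their values were seen. Of the 15 differences 10 were below 0 and 5 above.

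Among 18 other acyl-CoA synthetases 1 fell and none rose. ACSL4, which prefers arachidonic acid, had a difference of -0.36 (SE 0.068, adjusted p = 0.0388), and leaving out any single array ended the call (adjusted p of up to 0.166). Among all probe sets the brightest ACSL4 probe set did not pass (adjusted p = 0.0610), nor did 1 of its 2 dim ones (-0.29, adjusted p = 0.314). The dimmest had levels of 4.22, 4.53 and 4.36 on the S153E-RKIP arrays, against 5.09, 5.09 and 5.12 on the control arrays, and fell by 0.73 (adjusted p = 0.00478). None of 7 measured genes of mitochondrial fatty acid synthesis, a separate pathway that feeds lipoic acid formation, was called by limma, and none had an unadjusted p under 0.05.

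Of 22 measured genes of fatty acid oxidation 1 rose and none fell. CPT1A, which carries long-chain fatty acids into mitochondria and is inhibited by malonyl-CoA, had levels of 9.28, 9.30 and 9.34 on the S153E-RKIP arrays, against 9.004, 9.08 and 8.95 on the control arrays. The groups did not overlap, and the difference was 0.29 (SE 0.058, adjusted p = 0.0492). It lay just inside the threshold and was no longer called once any single array was left out (adjusted p of up to 0.204) or when tested among all probe sets (adjusted p = 0.0827). The dimmer CPT1A probe sets had differences of 0.038, 0.16 and 0.25, and none was called. Of 9 uptake and binding genes only DBI, the acyl-CoA binding protein gene, was called, with a fall of 0.44 (SE 0.066) that was lost without any 1 control array (adjusted p of up to 0.0917). All 3 DBI probe sets end in _x_at, a type that can pair with several transcripts.

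**Figure D3:**
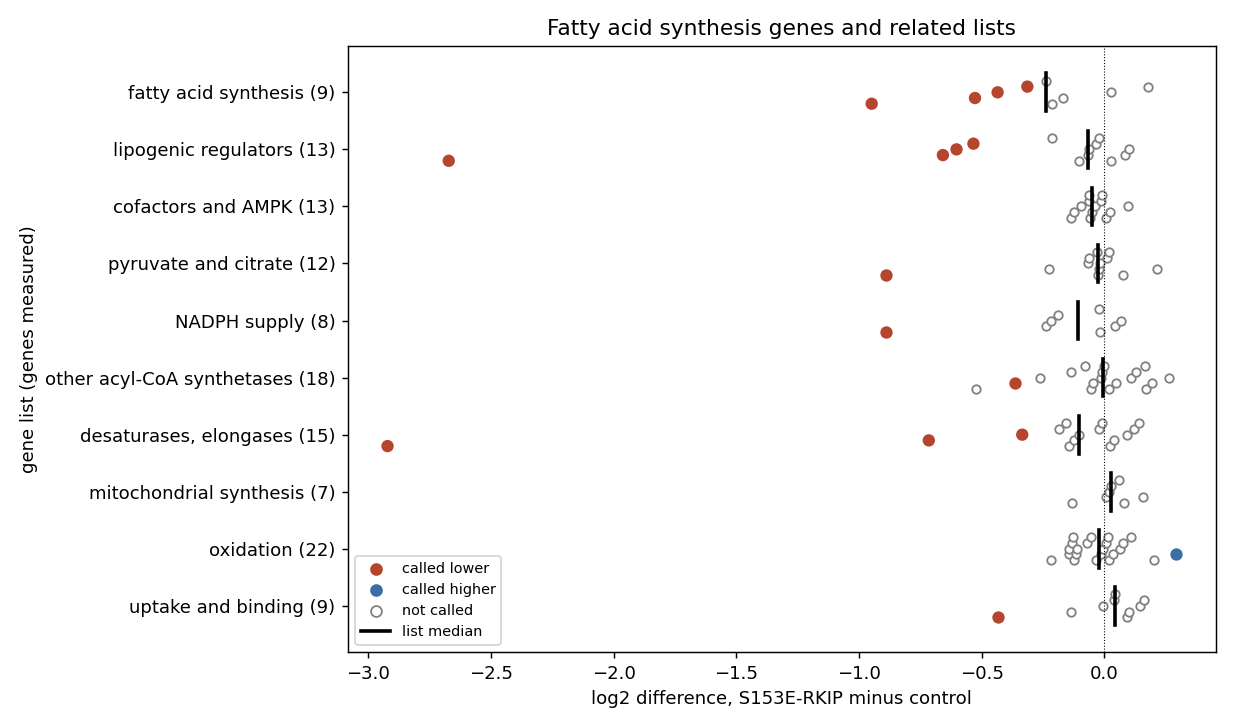
Log2 difference, S153E-RKIP minus control (horizontal axis), of each measured gene of the fatty acid synthesis list and of 9 related lists (vertical axis, number measured in brackets), with the list median as a black bar. Filled points were called, and IDH1 stands in both the citrate and the NADPH list. The fatty acid synthesis list has a median of -0.24, while the medians of the other lists lie between -0.11 and 0.043.

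Without S153E-RKIP replicate 1, 3 of the 9 fatty acid synthesis genes were called lower, with ACLY lost, 4 of 13 regulators, 1 of 8 NADPH genes and 2 of 15 desaturases and elongases. No gene of these lists was then called higher. In that fit 303 of all 19775 genes were called, in either direction.

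**Figure D4:**
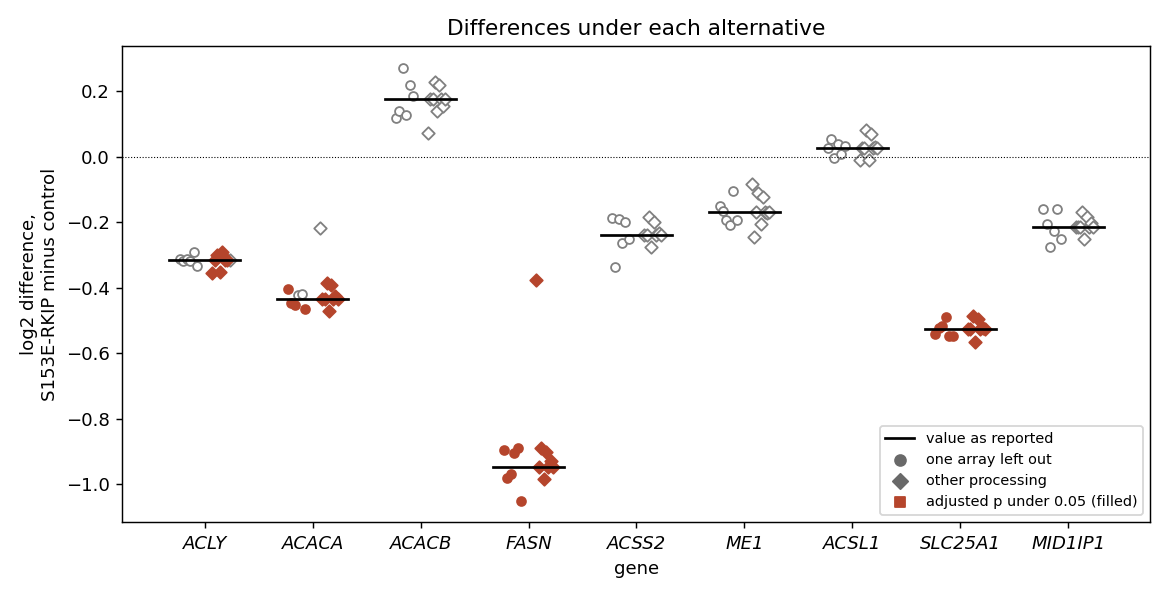
Log2 difference, S153E-RKIP minus control (vertical axis), of each measured fatty acid synthesis gene (horizontal axis) as reported (black line), with 1 array left out (circles) and under other processing (diamonds). Filled symbols had an adjusted p under 0.05. FASN and SLC25A1 were filled in every case, ACLY in none with an array left out, and the FASN diamond at -0.38, nearest to 0, is the mean of its 2 probe sets.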

How the data were processed

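Per the submitters' processing notes, the authors deposited log2 expression values made with RMA, a method of background correction, quantile normalisation over arrays and summary per probe set, of unstated version. Biotinylated target was made from 1 µg of total RNA, per the labels' protocols. The 62 control probe sets were left out. Of the others, 41091 carried 1 gene symbol in the platform annotation and 13522 several or none. A gene was read by its own brightest probe set (highest mean over the 6 arrays).

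The 3 S153E-RKIP and 3 control arrays, grouped by title, were compared with limma 3.58.1 under R 4.3.3 (lmFit, eBayes without trend, two-sided), once over 19775 genes and once over 54613 probe sets, each with Benjamini-Hochberg adjustment. The fit was tested on simulated data with 50 genes changed at each size. It called 22 of the 50 changed 1.3-fold, 40 at 1.5-fold, 49 at 2-fold and 50 at 4-fold. Of 19575 unchanged genes 4 were called. Changes below 1.3-fold were not simulated. Named genes are all members, SREBF1, PEBP1, HMGA2, up to 4 called genes per related list by smallest p, and the 3 nearest profiles of each called member. The members and lists were chosen with earlier results of these data known. Uncalled genes of the related lists and the cell markers were named after their values were seen. Promoter windows came from RefSeq. Figures were drawn with matplotlib 3.10.9. Alternatives were another probe set summary, a filter on dim genes, other scalings, other variance models, weighted arrays, the replicate number as a block, a threshold of 0.01 and leaving out single arrays.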

Additional observations from a re-analysis of the deposited data

How the results depend on the processing

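FASN and SLC25A1 kept their direction and their call under every alternative that gave them a value, with log2 differences between -1.05 and -0.38 and between -0.56 and -0.49. At the reported threshold ACACA lost its call in 3 of 15 alternatives and ACLY in 7 of 14, without a change of sign, and at a threshold of 0.01 ACLY was not called either. With the replicate number as a block (replicate block) 3 member genes were called lower, ACLY having an adjusted p of 0.0608, and 332 genes in all. Same-numbered arrays had correlations of deviations of 0.13, 0.26 and -0.044, so the numbers were not taken to pair them. The uncalled ACSL1 turned to -0.011 with the mean of its probe sets (-0.0107) and with equal medians (-0.0111), and ran from -0.0049 (without S153E-RKIP replicate 3) to 0.054 with 1 array left out. Without probe sets ending in _x_at or _s_at, 1 member was called lower, since FASN, SLC25A1, ACLY and ACSS2 then had none left, and 237 genes were called. Of all genes, 376 were called as reported, 600 with trend and robust estimation and 147 at a threshold of 0.01. Of all probe sets, 574 were called as reported, 939 with trend and robust estimation, 887 with the filter on dim genes and 245 at 0.01, where 2 member probe sets were called lower. With 1 array left out, the counts ran from 124 to 303 genes, from 209 to 450 probe sets, from 2 to 3 member genes and from 2 to 4 member probe sets, and fewer arrays enter each of these fits. No member was called higher under any alternative. Signal over background was not measured, which limits what the dim probe sets show.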
